A study of Canis lupus familiaris with 81 samples.

Results

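RTS0112273 is 1 of 2010 probes counted in canine appendicular osteosarcoma, and it was chosen by its measured values: its level ranged more widely over the tumours than that of any other probe. The identifier is the only name the files give it, and none of the 2010 identifiers matched the gene table used for the dog (assembly UU_Cfam_GSD_1.0). Its gene, its sequence and its place in the genome are therefore not given here. Osteosarcoma is a malignant bone tumour whose cells lay down bone matrix, and in dogs as in people it arises most often in the long bones of the limbs. Such tumours are known to mix malignant cells with vessels, immune cells, bone-resorbing cells and mineralised matrix in proportions that vary between patients and within 1 tumour.

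The regions were profiled with the GeoMx Digital Spatial Profiler and its Canine Cancer Atlas probe panel. In this assay probes bind RNA in a tissue section, light releases a DNA tag from each probe inside a chosen region, and the tags are sequenced and counted. The tumours came from pet dogs in a trial of the National Cancer Institute's comparative oncology consortium and were placed on 2 tissue microarrays, slides that hold small pieces of many specimens. The 81 libraries comprise 68 regions from 24 tumours, 4 regions each of control kidney, spleen and liver, and a no-template control. Each array carries 2 regions of 10 of the tumours and 1 region of the other 14. No treatment, age or breed is in the labels, which also do not say whether the control regions came from 1 animal or several. The study ranked dogs by disease-free interval, but the labels do not place single tumours in those groups, so the interval was not analysed here. Since no probe has a gene name, the labelled tissues could not be checked against marker genes.

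Total counts were 17711 to 1069118 in the tumour regions (median 211967). Kidney libraries held 156004 to 396058, spleen libraries 118688 to 306639 and liver libraries 92126 to 205809. The no-template library held 74 counts, 0 of them from RTS0112273. Levels are given below as log2 CPM (counts scaled to a common library size) after scaling by trimmed mean of M values (TMM), which corrects for libraries in which a few probes take up much of the counts. The level of a tumour is the mean over its regions, and the SD beside it is between those regions, so it covers sampling of the tissue as well as technical spread. A bulk region does not show whether a higher level comes from more cells that carry the transcript or from more transcript per cell.

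RTS0112273 ran from near the background level in 1 tumour to the third-highest of all probes in another. In tumour 901 its counts were 13327 and 13037, or 9.38% (95% Wilson interval 9.23 to 9.53) and 8.86% (8.72 to 9.01) of the region's total. In tumour 1002 its counts were 48, 28, 47 and 55, which made up 0.0141%, 0.0119%, 0.0132% and 0.0114% of the totals, with intervals that overlap each other. On the scaled level this is 16.85 ± 0.01 (SD, n = 2 regions) against 6.71 ± 0.04 (SD, n = 4 regions). The range over tumours was thus 10.14 log2 units, or 1124-fold. It chose the probe and is given as a description with no test. The intervals cover counting error only.

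The next probe in width of range was RTS0113778, with 7.95 log2 units (247-fold), followed by RTS0113072 with 7.71 (210-fold). Over all 2010 probes the median range was 1.99 log2 units. The SD over the 24 tumours was 2.69 for RTS0112273 and 0.48 for the median probe.

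**Figure D1:**
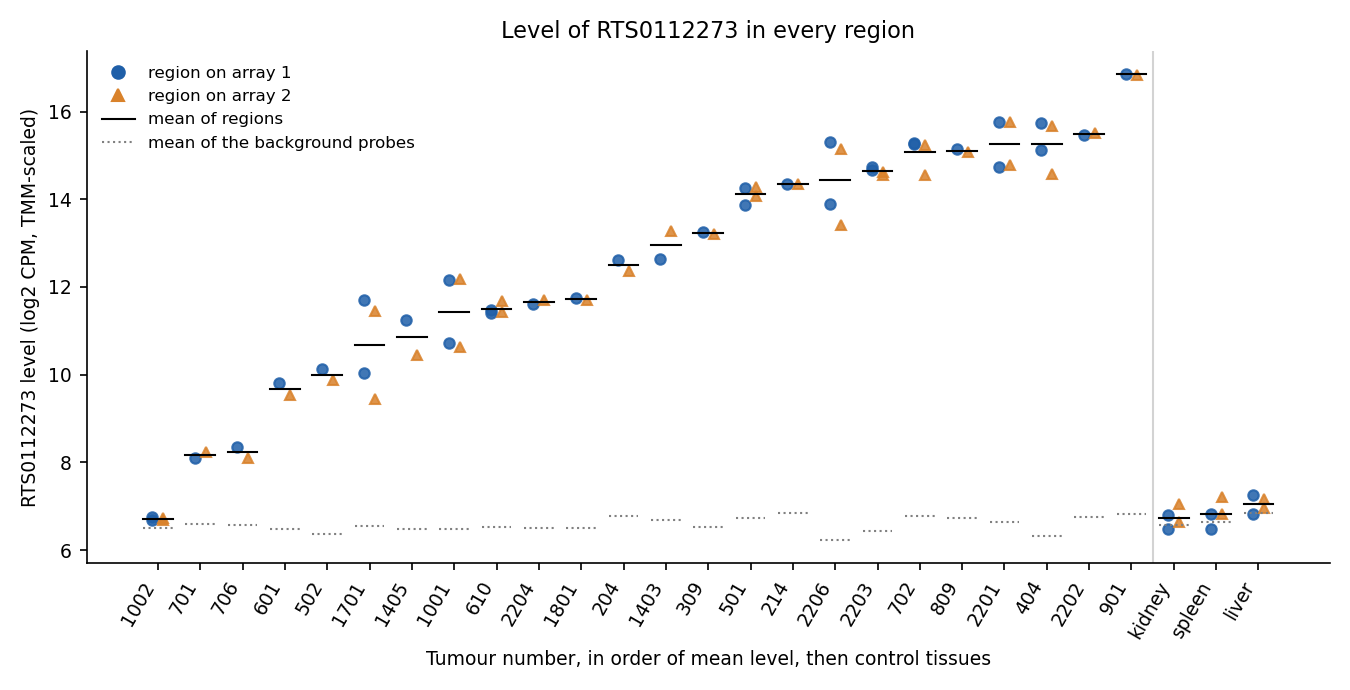
Level of RTS0112273 in every tumour region and control region, as TMM-scaled log2 CPM on the vertical axis, with the tumours in order of their mean level and then kidney, spleen and liver. Circles are regions on array 1, triangles regions on array 2, black bars the means, and the dotted line the background. The tumours climb in steps from 6.71 to 16.85, and the 4 regions of tumour 1002 are the only tumour regions at the height of the control tissues.

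The lowest 5 tumours spanned 6.71 to 10.0. Above tumour 1002 came 701 at 8.17 ± 0.09 and 706 at 8.23 ± 0.18, then 601 at 9.67 ± 0.18 and 502 at 10.0 ± 0.19 (SD, n = 2 regions each). Tumours 701 and 706 were not told apart by their regions, at 8.10 and 8.24 in the former and 8.36 and 8.11 in the latter.

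A middle run of 6 tumours lay between 10 and 12. Tumour 1701 stood at 10.67 ± 1.09 (SD, n = 4), 1405 at 10.85 ± 0.57 (n = 2), 1001 at 11.42 ± 0.86 (n = 4) and 610 at 11.50 ± 0.13 (n = 4). Tumours 2204 and 1801 closed this run at 11.65 ± 0.07 and 11.72 ± 0.03 (SD, n = 2 each). The 3 tumours from 12 to 14 were 204 at 12.50 ± 0.17, 1403 at 12.95 ± 0.45 and 309 at 13.23 ± 0.04 (SD, n = 2 each).

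The most crowded stretch held 9 tumours between 14 and 16. They began with 501 at 14.12 ± 0.19 (SD, n = 4), 214 at 14.34 ± 0.001 (n = 2) and 2206 at 14.44 ± 0.93 (n = 4). Tumour 2203 followed at 14.65 ± 0.07, 702 at 15.08 ± 0.35, 2201 at 15.26 ± 0.58 and 404 at 15.27 ± 0.54 (SD, n = 4 each). Tumour 809 stood at 15.11 ± 0.06 and 2202 at 15.50 ± 0.03 (SD, n = 2 each). Only tumour 901 lay above 16.

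The order was graded, with no wide empty stretch that splits the tumours in 2 groups. The largest gap between neighbours was 1.46 log2 units, from 1002 to 701, or 14.4% of the whole range. It was closely followed by 1.44 from 706 to 601 and 1.35 from 2202 to 901, so the widest gaps lay toward the ends of the order. Within the middle the widest gaps were 0.88, from 309 to 501, and 0.78, from 1801 to 204. For comparison, the largest gap of the median probe was 20.3% of its range, and 296 of the 2010 probes had a smaller share than RTS0112273. This share divides by the range, for which RTS0112273 was chosen, so its place among the probes is no evidence of a graded order.

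Most neighbours could not be told apart on the pooled spread between regions. Of 23 gaps, 16 were at or under the pooled SD between regions of a tumour, which was 0.51, and 7 were over it. In 15 of the 23 neighbouring pairs the regions of the 2 tumours overlapped, and in 8 they did not. The gaps from 601 to 502, 204 to 1403 and 501 to 214 were under the pooled SD although the regions did not overlap. Tumours with a wide spread, such as 1701 at 1.09, raise the pooled SD, and the median SD within a tumour was 0.18. The spread between tumours was nevertheless far above that within them, at an SD of 2.69 against 0.51. The mean over tumours was 12.50 and the median 12.72.

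High tumours devoted a large part of their tags to this 1 probe. It made up over 1% of the summed counts in 11 tumours. In 12 tumours it was among the 10 highest probes in every region, and so in 36 of 68 regions. It ranked 3 of 2010 in both regions of 901, and between 1269 and 1322 in the 4 regions of 1002.

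The control tissues were uniformly low. Kidney regions had counts of 23 to 76 and levels of 6.49, 6.79, 7.04 and 6.63, with a mean of 6.74 ± 0.24 (SD, n = 4 regions). Spleen regions had counts of 26 to 67 and levels of 6.47, 6.82, 6.81 and 7.20, with a mean of 6.83 ± 0.30. Liver regions had counts of 22 to 50 and levels of 6.81, 7.25, 6.96 and 7.16, with a mean of 7.05 ± 0.20. The 3 tissues overlapped each other. The probe ranked between 836 and 1887 of 2010 in these regions, and its count was 0.61 to 1.06 times the median probe's count in the same region.

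Background was taken as the mean level of the 25% of probes that were lowest in the control tissues, because no negative control probes were identified. RTS0112273 exceeded this level by 0.17 in kidney, 0.19 in spleen and 0.20 in liver on average, and single control regions lay between -0.21 and 0.60 log2 units from it. Tumour 1002, at 0.21 above background with regions from 0.18 to 0.25, lay inside the range of the controls. Its count was 0.69 to 0.74 times that of the median probe. Whether the probe was detected above background there was not tested. The background probes were themselves chosen by their low levels in these controls.

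Every other tumour stood apart from the controls. The lowest of them, 701 and 706, were 1.57 and 1.65 log2 units above background, and their counts of 124, 125, 160 and 71 were 1.92 to 2.32 times the median probe's. Tumour 901 was 10.02 log2 units above background. In all, 64 of 68 tumour regions and all regions of 23 of 24 tumours lay above the highest control region, at 7.25, and the same numbers held for the level over background. The 4 exceptions were the regions of tumour 1002.

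The edgeR tests between tumours and tissues did not pass the threshold despite differences of this size. The fitted mean of the 24 tumours, dominated by the high ones, was 7.52 ± 3.69 (SE) log2 units above kidney (edgeR adjusted p = 0.37), and 23 of 24 tumours were higher. Against spleen the difference was 7.54 ± 3.69 (edgeR adjusted p = 0.459), and against liver it was 7.26 ± 3.64 (edgeR adjusted p = 0.21). Unadjusted, these p-values from edgeR's quasi-likelihood test were 0.0502, 0.0497 and 0.0551. Each tissue entered as 1 summed sample that was assumed to vary like the tumours, whose own spread is the widest of all probes and makes the SE large. Of all 2010 probes, 5.12% passed against kidney, 2.39% against spleen and 5.02% against liver. DESeq2 gave differences of 7.60, 7.61 and 7.35 log2 units and adjusted p-values of 0.00159, 0.00399 and 0.00254, with 8.41%, 4.03% and 12.1% of all probes called. In both tools the spread came from the tumours alone, by whose values the probe was chosen, so these p-values hold no measure of the spread of a control tissue.

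The array means of a tumour lay within 0.5 log2 units of each other in 22 of 24 tumours. The exceptions were 1405, at 11.25 on array 1 and 10.45 on array 2, and 1403, at 12.63 and 13.27. Array 2 was 0.08 ± 0.05 (SE) log2 units below array 1 with the tumour as a block (edgeR adjusted p = 0.357), and lower in 16 of 24 tumours. On this comparison 8.76% of all probes passed. The difference was -0.16 and passed with upper quartile factors (edgeR adjusted p = 0.0466) and with library size alone (edgeR adjusted p = 0.0431). Over the 24 tumours the order of the array means was nearly the same, with a Spearman rho of 0.992 given as a description. The SD between the arrays of a tumour was 0.20, and it was 0.22 in the tumours with 1 region on each.

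Regions on the same array differed more. In the 10 tumours with 2 regions on each array, the pairs differed by 0.03 to 2.01 log2 units with a median of 0.64, and the SD between the 2 regions was 0.72. In 16 of the 20 pairs the 95% intervals of the shares of counts did not overlap. In 8 pairs, from 5 tumours, the difference was over 1 log2 unit, while in 4 tumours (501, 610, 1002 and 2203) both pairs differed by under 0.5.

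Tumour 1701 held the widest pairs. On array 1 its regions stood at 11.71 and 10.05, with shares of 0.193% (95% Wilson interval 0.183 to 0.203) and 0.0562% (0.0462 to 0.0684). On array 2 they stood at 11.46 and 9.45, a 4.04-fold difference. The pairs thus differed by 1.66 log2 units on array 1 and 2.01 on array 2.

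Tumour 1001 had a difference of similar size on both arrays. Its regions stood at 10.72 and 12.15 on array 1 (2.69-fold) and at 10.63 and 12.18 on array 2 (2.92-fold). The same held for tumour 2201, at 15.76 and 14.73 on array 1 and 15.75 and 14.78 on array 2. In both tumours the higher and the lower level on array 2 lay within 0.1 log2 units of those on array 1. The labels do not say which region of array 2 matches which of array 1.

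Tumour 2206 had regions at 15.30 and 13.90 on array 1 and at 13.41 and 15.15 on array 2. Its lowest region also had the fewest counts of all tumour regions, 17711. In tumour 404 the choice of scale mattered: on array 1 the share fell from 2.84% to 0.90% between the regions, but the scaled levels were 15.73 and 15.12, only 1.52-fold apart. In tumour 501 share and scaled level ran in opposite directions on both arrays. On array 1 the share was 1.18% and 1.62% where the level was 14.26 and 13.87, and on array 2 it was 1.11% and 1.76% where the level was 14.27 and 14.07. Of the 20 pairs, 3 were turned in this way: both of 501, which are among the 16 with shares whose intervals were apart, and that of 2203 on array 2, whose intervals overlapped. Tumour 2203, by contrast, differed by 0.05 and 0.07 on the 2 arrays, and tumour 1002 by 0.08 and 0.03. The higher region of a pair had the higher total count in 12 of 20 pairs and the higher background in 12 of 20.

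**Figure D2:**
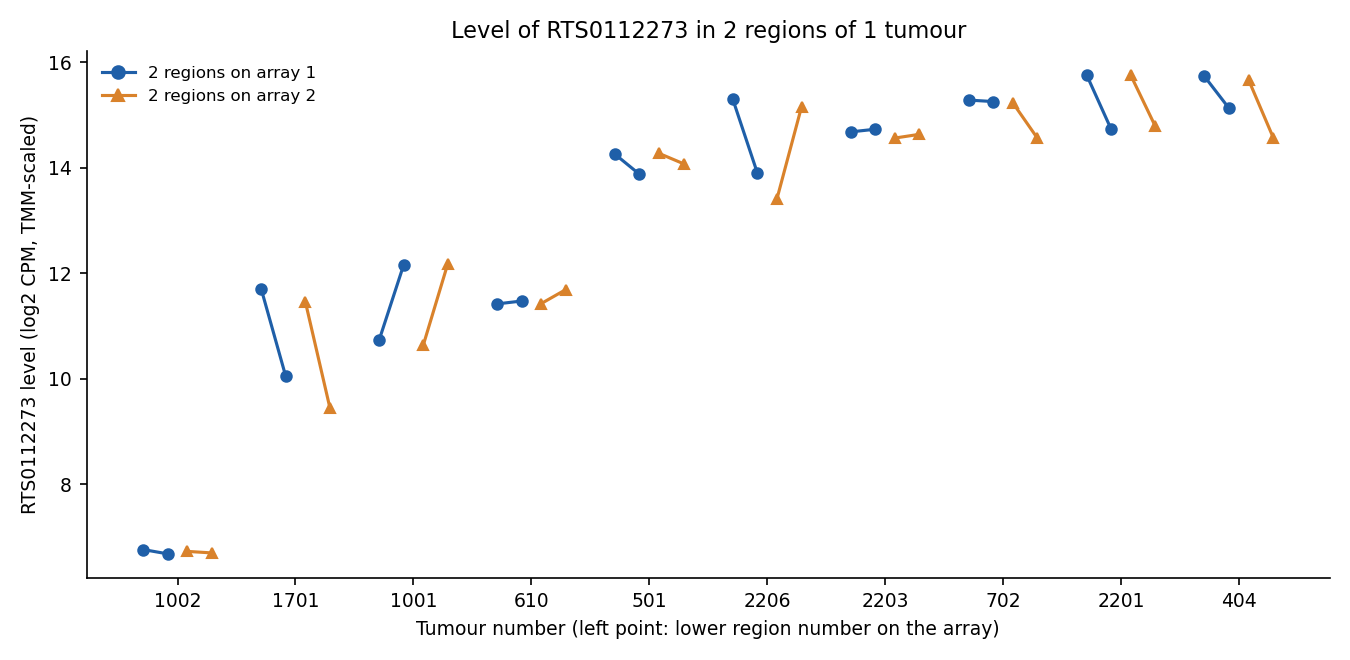
Level of RTS0112273 (TMM-scaled log2 CPM) in the 2 regions of 1 tumour on each array, for the 10 tumours with 2 regions per array, with a line joining the regions of a pair. The lines of tumours 1701, 1001 and 2206 are long on both arrays, and those of 1002, 2203, 501 and 610 are short on both.

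Probes were next compared with RTS0112273 over the 24 tumours. Pearson's r of the tumour levels had a median of -0.05 over the 2009 other probes, with quartiles at -0.28 and 0.19 and extremes at -0.80 and 0.73. These tumour values share library, depth and scaling. The slope of each probe per log2 unit of RTS0112273 was tested with edgeR. It passed for 27 probes with a positive and 48 with a negative slope, 3.73% of the 2009 (1.34% positive and 2.39% negative), and 458 had an unadjusted p under 0.05. The split by sign depended on the scaling: 91 positive and 35 negative slopes passed with upper quartile factors, and 6 and 85 with library size alone. DESeq2 called 66 positive and 95 negative slopes, 8.01% of the probes (3.29% and 4.73%). Positive slopes that passed ran from 0.08 to 0.41 and negative ones from -0.82 to -0.09, against a median of 0.004 over all probes. The median level was 6.96 among the positive calls and 7.89 among the negative ones, against 7.13 over all probes. Of the 27 positive calls, 9 lay below 6.55, the lower quartile of level over all probes, and of the 48 negative calls 0 did.

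The probe most like it was RTS0113439, at r = 0.73 and rho = 0.83. It ranged from 6.19 in tumour 1701 to 9.68 in 2201, with 6.45 in 1002 and 8.40 in 901. Its slope was 0.35 ± 0.06 (SE, edgeR adjusted p = 0.00197), so it rose by 0.35 log2 units for each unit of RTS0112273. Without 1002 and 701, the tumours farthest from the median, r was 0.70. Kidney and liver had 6.47 and 6.98 of this probe, near the low tumours, and spleen had 8.16.

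Of the other probes among the 10 with the highest r, RTS0112412 (r = 0.69) and RTS0112556 (r = 0.68) came next. RTS0112412 had a slope of 0.16 ± 0.03 (SE, edgeR adjusted p = 0.00635) and RTS0112556 one of 0.34 ± 0.07 (edgeR adjusted p = 0.00505). RTS0112556 went from 6.15 in tumour 706 to 10.53 in 809. RTS0113706 had the steepest positive slope, 0.41 ± 0.09 (SE, edgeR adjusted p = 0.0127), and went from 5.57 in tumour 502 to 11.17 in 809. Its levels in kidney, spleen and liver were 6.18, 6.31 and 6.80. In both probes the highest tumour, 809, was also among the high tumours for RTS0112273, at 15.11.

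The remaining 3 that passed had r of 0.67 (RTS0113477), 0.65 (RTS0113157) and 0.63 (RTS0113022), with slopes of 0.09, 0.23 and 0.16 (edgeR adjusted p = 0.00842, 0.0127 and 0.0184). RTS0113477 and RTS0113022 were dim, with median counts of 13 and 16 per tumour region, and RTS0112412 was little brighter at 17.5. Kidney stood above the highest tumour in RTS0112412 (8.125 against 8.067) and in RTS0113477 (8.52 against 7.11). Liver also stood above the highest tumour in RTS0113477, at 7.34. With library size alone as the scale, RTS0112412, RTS0113477, RTS0113157 and RTS0113022 no longer passed (edgeR adjusted p = 0.187, 0.615, 0.0622 and 0.162). Their slopes were then 0.12, 0.06, 0.18 and 0.16, so that of RTS0113022 had barely moved. Without tumour 706 RTS0113022 had a slope of 0.15 (edgeR adjusted p = 0.0507), and on array 1 alone one of 0.16 (edgeR adjusted p = 0.0931). RTS0113477 had slopes of 0.07 and 0.09 on arrays 1 and 2 alone (edgeR adjusted p = 0.0764 and 0.104).

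RTS0112268 had r = 0.68 and a slope of 0.40 ± 0.12 (SE) that did not pass (edgeR adjusted p = 0.0523). It was bright everywhere in the tumours, from 13.77 in 706 to 20.0 in 404, and stood at 8.46 in kidney, 8.58 in spleen and 7.99 in liver. Without tumour 610, whose level of RTS0112268 was 19.83, the slope was 0.46 (edgeR adjusted p = 0.00575). It also passed without tumour 214, 309, 809, 1701 or 2203. With upper quartile factors, library size alone and log2 total count in the fit it passed as well (edgeR adjusted p = 0.0266, 0.0341 and 0.000373), as it did with DESeq2 (DESeq2 adjusted p = 0.00429). RTS0113068 had r = 0.61 and a slope of 0.29 ± 0.09 (edgeR adjusted p = 0.0523), which passed without tumour 214, 404, 601, 610 or 1701. It also passed with upper quartile factors and log2 total count in the fit (edgeR adjusted p = 0.0206 and 0.0457) and with DESeq2 (DESeq2 adjusted p = 0.00429). RTS0113852 had r = 0.61 and a slope of 0.07 ± 0.03 (edgeR adjusted p = 0.105), and 0.12 with upper quartile factors (edgeR adjusted p = 0.0436). RTS0112944, a bright probe chosen for comparison, had r = -0.12 and a slope of 0.08 ± 0.08 (edgeR adjusted p = 0.586).

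The 10 probes of lowest r all passed the test of the slope, which uses the same tumours as the ranking. RTS0113778 stood first, at r = -0.80 and rho = -0.79, and it is also the probe with the next widest range over tumours. It was lowest in 214 at 6.85 and in 901 at 6.99, and highest in 701 at 14.71 and 706 at 14.80. Its slope was -0.82 ± 0.12 (SE, edgeR adjusted p = 0.000517), so it fell by 0.82 log2 units for each unit of RTS0112273. Tumour 1002, the lowest for RTS0112273, was at 12.26 and not at the top. Kidney, spleen and liver were low in RTS0113778 too, at 6.75, 7.58 and 7.04.

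RTS0112908 followed with r = -0.79 and a slope of -0.41 ± 0.07 (SE, edgeR adjusted p = 0.00153), from 7.06 in tumour 901 to 11.56 in 701. Among its neighbours, RTS0113655 had r = -0.72 and a slope of -0.37 ± 0.07 (edgeR adjusted p = 0.00505), from 9.09 in tumour 809 to 13.76 in 601. Without the 2 farthest tumours its r was -0.84. The other 7 were RTS0113616, RTS0113262, RTS0112396, RTS0112895, RTS0112825, RTS0113377 and RTS0112815, with r from -0.78 to -0.72 and slopes from -0.22 to -0.14. Calls were lost for RTS0113377 with upper quartile factors (slope -0.10, edgeR adjusted p = 0.0569), for RTS0113262 on array 1 alone (-0.11, edgeR adjusted p = 0.0819) and for RTS0112825 on array 2 alone (-0.12, edgeR adjusted p = 0.0687). Tumour 706 held the highest level in 6 of the 10 probes of lowest r: RTS0113778, RTS0113616, RTS0112895, RTS0112825, RTS0113377 and RTS0112815. Without it the calls fell from 27 to 13 positive and from 48 to 32 negative. Without tumour 404 they grew to 45 and 87.

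**Figure D3:**
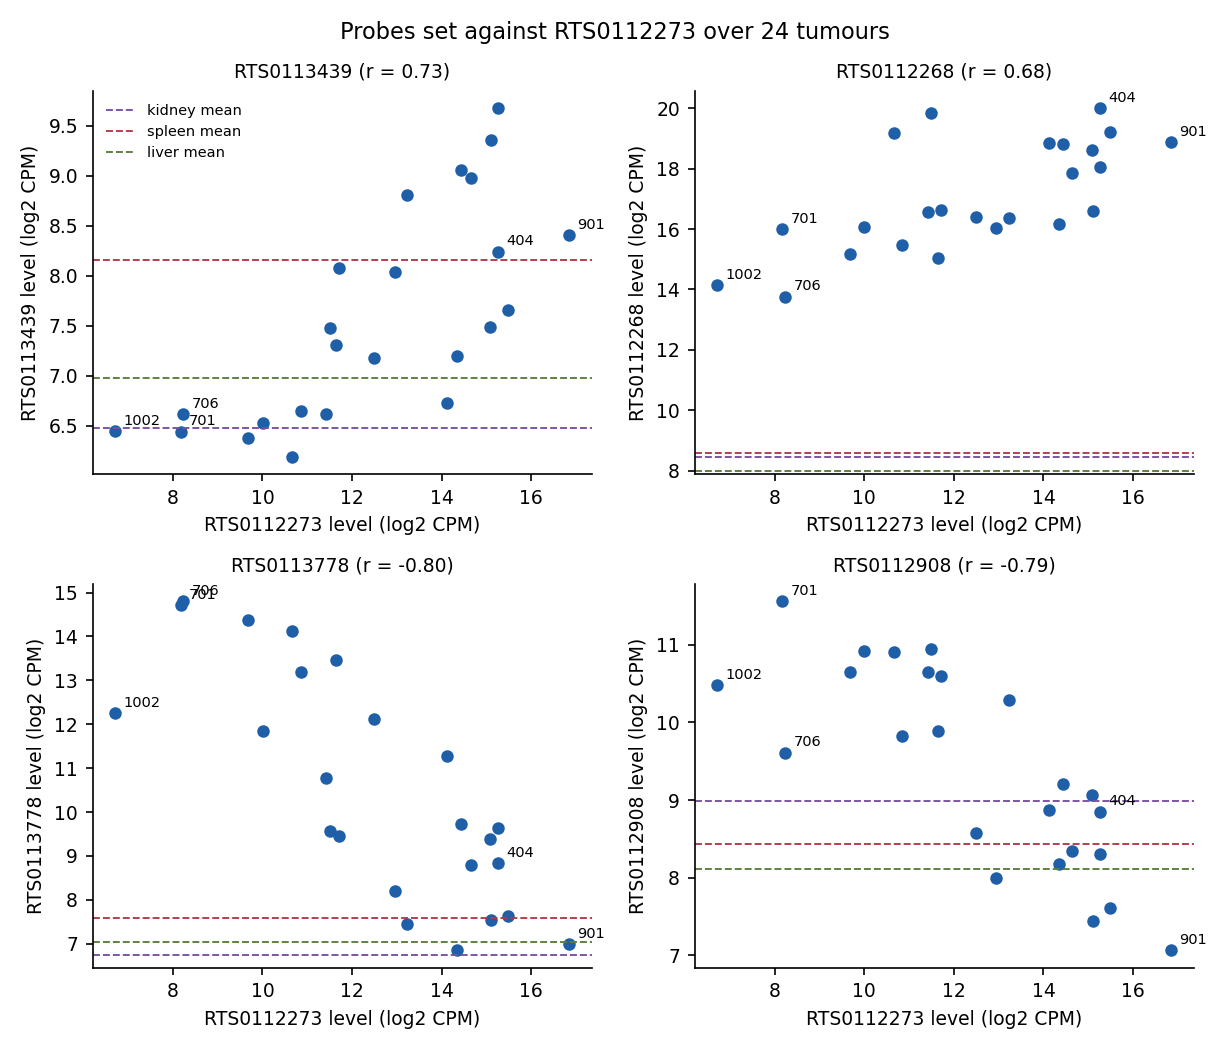
Levels of RTS0113439, RTS0112268, RTS0113778 and RTS0112908 against the level of RTS0112273 over the 24 tumours, all as TMM-scaled log2 CPM, with 1 point per tumour and dashed lines for the means of kidney, spleen and liver. The first 2 probes slope upward (r = 0.73 and 0.68) and the last 2 downward (r = -0.80 and -0.79).

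Between regions of the same tumour, likeness was measured as the correlation, taken through 0, of the differences between the 2 regions of a pair over 10 tumours. Array 1 gave the ranking and array 2 a repeat with other regions of the same tumours. With 10 pairs and 2009 probes these values are a description and carry no test. Their quartiles were -0.24 and 0.28 on array 1 and -0.17 and 0.38 on array 2. A correlation of at least 0.8 in size was reached by 4 probes on array 1, 2 of them positive, and by 3 on array 2, all negative. No probe reached it on both arrays. Leaving out 1 tumour at a time moved the count on array 1 from 4 to between 5 and 24. It was 20 without 1001, 24 without 1701, 13 without 2201, 11 without 2206 or 501, and 10 without 404 or 702.

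The leading probes of array 1 often did not repeat. RTS0113743, at 0.85 on array 1, was at -0.03 on array 2, and RTS0113102 went from 0.81 to -0.06. RTS0112662, the lowest on array 1 at -0.84, was at 0.48 on array 2, and RTS0112109 went from -0.80 to 0.36. Others kept their sign: RTS0113387 (0.77 and 0.71), RTS0113464 (0.77 and 0.56) and RTS0113472 (0.77 and 0.50) among the positive ones, and RTS0112882 (-0.78 and -0.60), RTS0113465 (-0.78 and -0.15) and RTS0112491 (-0.82 and -0.22) among the negative. None of these 10 probes passed the test of the slope over tumours. RTS0113464 even had r = -0.47 over tumours, the opposite sign to its values between regions.

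Likeness over tumours and likeness between regions were partly separate. RTS0113439 and RTS0113706 moved the same way in both. Between regions on arrays 1 and 2, RTS0113706 had 0.58 and 0.68, and RTS0113439 had 0.47 and 0.70. Tumour 2206 weighed heavily in the latter: its differences in RTS0113439, -2.61 and 2.27 on the arrays, were the largest of any tumour. Its differences in RTS0112273 were -1.40 and 1.74, and 1 of its array 2 regions held only 17711 counts. Correlations of RTS0113439 without this tumour are not given here. On the negative side RTS0112908 had -0.49 and -0.45, and RTS0113655 had -0.38 and -0.46.

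RTS0113778 had only -0.08 and -0.18 between regions in spite of its r of -0.80 over tumours, and RTS0112268 had -0.02 and -0.14 in spite of 0.68. RTS0113022 had the opposite sign between regions, -0.53 and -0.66, as had RTS0113477, with -0.37 and -0.46. RTS0113262, negative over tumours, was at 0.35 and 0.44.

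Of the 10 probes with the highest r over tumours, 6 were above 0 between regions on both arrays and 4 below 0 on both. Of the 10 with the lowest r, 4 were below 0 on both, 3 above 0 on both, and 3 differed in sign between arrays. Of the 27 positive calls, 19 were above 0 on both arrays, where 38.6% of all probes were. Of the 48 negative calls, 22 were below 0 on both, where 23.4% of all probes were. These counts are given without a test.

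**Figure D4:**
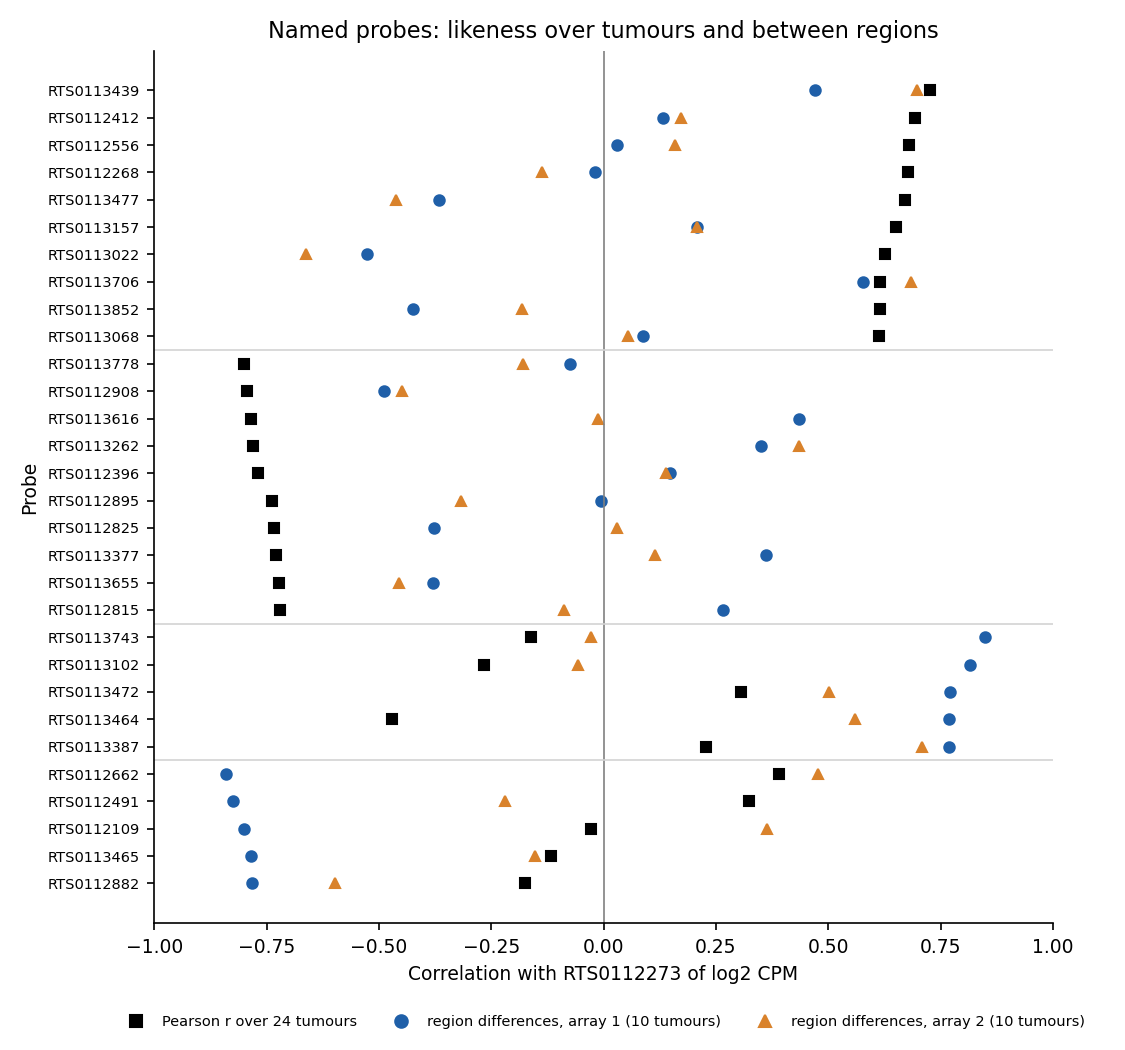
Correlation of each named probe with RTS0112273. Black squares give Pearson's r over 24 tumours, circles the correlation of region differences in 10 tumours on array 1, and triangles that on array 2. For RTS0113439 and RTS0113706 all 3 marks lie above 0, and for RTS0113022 and RTS0113477 the square lies above 0 and both others below.

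The makeup of the libraries moved with RTS0112273, and its part in the results above was not tested. The share of counts in the 10 highest other probes, 19.2% to 72.7% over tumours, correlated with its level at r = 0.60 (permutation p = 0.00216, adjusted over 3 relations 0.00648) and rho = 0.66 (permutation p = 0.00061, adjusted 0.00183). Without 610 and 404, the tumours farthest from the median of this share, r was 0.66. The arrays taken singly gave 0.61 (array 1) and 0.58 (array 2). With log2 total count r was -0.43 (permutation p = 0.0357, adjusted 0.0535) and rho -0.37 (permutation p = 0.0757, adjusted 0.102). Without 1403 and 610, the farthest from the median total, r was -0.46, while array 1 alone gave -0.17 and array 2 alone -0.56. The relation passed, at r of -0.50 to -0.45, without tumour 204, 404, 601, 901, 1403, 2201 or 2203. With the background level r was 0.32 (permutation p = 0.123, adjusted 0.123) and rho 0.34 (permutation p = 0.102, adjusted 0.102). That relation stood at 0.42 without 214 and 2206, the tumours farthest from the median background. It was 0.53 on array 1 and 0.16 on array 2. Without tumour 404 it was 0.43 and passed (permutation adjusted p = 0.041). The TMM factors, 0.25 to 1.80 in tumour regions and 1.69 to 2.20 in controls, are part of every scaled level given here. With log2 total count in the fit of the slopes, 39 positive and 53 negative probes passed, 21 and 45 of them among the 27 and 48 above.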

How the data were processed

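The deposited values are raw counts per probe and region, written by the GeoMx NGS pipeline 2.3.4 per the file headers; no normalization is recorded there. Aligner settings are not given in the sources used here. Counts of 80 regions were scaled by TMM in edgeR 4.0.16 (R 4.3.3) and turned into log2 CPM with a prior count of 2. Tests used edgeR's quasi-likelihood fit on regions summed per tumour or tissue (filterByExpr, Benjamini-Hochberg adjustment over all probes, threshold 0.05), with DESeq2 1.42.0 as an alternative. The array comparison paired the summed regions of a tumour as a block, since its number recurs across arrays in the labels. Relations with library measures used 100000 two-sided permutations. The scripts were tested on simulated data.

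Named probes were RTS0112273, the 2 next in range, the 10 of highest and the 10 of lowest r over tumours, the 5 of highest and the 5 of lowest correlation between regions on array 1, and RTS0112268 and RTS0112944 for comparison. The probe, the rule and the comparison probes were chosen with earlier results of these data known. Alternatives covered the scaling, the filter, the prior count, each array alone, shallow regions, and each tumour left out in turn. The p-values measure the spread between these tumours. In the array comparison with the tumour as a block, they measure how the difference between arrays varied over these tumours.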

Additional observations from a re-analysis of the deposited data

Results flagged for a closer look

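In tumour 702, 1 of 4 regions stood apart from the others: its level of RTS0112273 was 14.56, while the other 3 lay between 15.23 and 15.28. The gap was 0.93 of the range over the 4 regions. This region was on array 2 and had a total of 263214 counts, the highest of the 4, with RTS0112273 at 1.83% of them against 3.28% to 3.78% in the others. It was 1 of 13 groups examined, and chance marks about 1 in 20.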

How the results depend on the processing

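The direction of most results of RTS0112273 held under the alternatives run. The exceptions were its relation to background, 4 probes between regions and the balance of slope calls. Positive calls outnumbered negative ones, 91 to 35, with upper quartile factors, against 27 and 48 as reported. In 3 of 20 region pairs the unscaled share also ran opposite to the scaled level. The range over tumours was 9.40 with library size alone and 9.50 without scaling or prior count. With a tumour left out it was 8.68 (without 1002) to 10.14 (8.78 without 901). The edgeR differences of tumours from kidney, spleen and liver shrank to 6.49, 6.27 and 6.17 with library size alone. With upper quartile factors they were 7.33, 7.36 and 6.76. Against kidney, spleen and liver, DESeq2 gave 7.60, 7.61 and 7.35; with a tumour or a region of that tissue left out edgeR gave 7.15 to 7.61, 7.18 to 7.64 and 6.89 to 7.37 with adjusted p of 0.338 to 0.396, 0.399 to 0.496 and 0.185 to 0.241. Array 2 against 1 was -0.16 with upper quartile factors (edgeR adjusted p = 0.0466) and -0.16 with library size alone (0.0431), -0.04 with no replicate block (0.997), and -0.11 to -0.05 with a tumour left out. Positive slopes numbered 91 with upper quartile factors, 6 with library size alone, 66 with DESeq2, 17 on array 1 alone and 13 to 45 with a tumour left out; negative slopes numbered 85, 95 and 32 to 87 with library size alone, DESeq2 and a tumour left out. Of the 27 and 48 calls, 5 and 34 remained with library size alone and 27 and 48 with DESeq2; the median slope of all probes was 0.039 with upper quartile factors and -0.036 with library size alone. Of named slopes, 0 of 660 values reversed, 11 lost and 19 gained a call. Probes past 0.8 between regions on array 1 numbered 1 with upper quartile factors and 5 (without 2203 or 610) to 24 (without 1701). On array 2, RTS0113743 (-0.028), RTS0113102 (-0.057), RTS0112662 (0.48) and RTS0112109 (0.36) reversed. The r with log2 total count was -0.46 with upper quartile factors (permutation adjusted p 0.0304), -0.55 with library size alone (0.0174), -0.56 on array 2 (0.00613) and -0.50 to -0.38 with a tumour left out. The r with the share of the highest probes was 0.43 with library size alone (0.0527) and 0.56 to 0.68 with a tumour left out. The r with background was 0.44 with upper quartile factors (0.0304), 0.53 on array 1 (0.0118), -0.009 with library size alone (0.965), and 0.24 to 0.45 with a tumour left out. The cause of these changes was not tested. Counts under 100 in controls and in tumour 1002 limit statements at the background.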
